A study of Homo sapiens with 12 samples.

Results

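FOXK1, FOXK2, FOXO1 and FOXO3 are 4 genes for transcription factors of the forkhead family, and FOXK1 encodes the very factor that was immunoprecipitated. Their peaks were chosen by position alone, as peaks whose summit lay within 5 kb of these hg19 transcription starts: FOXK1 at chromosome 7, 4721930; FOXK2 at chromosome 17, 80477594; FOXO1 at chromosome 13, 41240734; and FOXO3 at chromosome 6, 108881026. FOXO1 is read from the minus strand and the other genes from the plus strand. Of 223205 peaks in the 6 deposited lists, 54 met this rule. The study mapped FoxK1 by chromatin immunoprecipitation in HepG2, a human liver cancer cell line, after fixation with 1% formaldehyde for 10 min. All cells first spent 16 h in serum-free medium, and the insulin group (n = 3 libraries) then received 100 nM insulin for 20 min, while the untreated group (n = 3 libraries) received none. The 6 input libraries were not analysed here. Whether libraries of a group came from separate cultures is not in the labels, and the p-values reflect library-to-library spread alone, which may be technical.

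Forkhead proteins bind DNA through a winged-helix domain that reads short A- and T-rich sites related to TGTTTAC. FOXO1 and FOXO3 promote the fasting program of hepatocytes, and insulin, through AKT, has them phosphorylated and moved out of the nucleus. FOXK1 and FOXK2 can recruit SIN3 corepressors and, unlike the FOXO proteins, are known to enter the nucleus in response to insulin. The comparison addresses FoxK1 binding at the genes of its own family, with insulin and without.

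The 250 bases before each RefSeq transcription start (build GRCh38.p14) are shown for their promoter letters. They are FOXK1 chr7:4682045-4682294 (plus strand), FOXK2 chr17:82519482-82519731 (plus strand), FOXO1 chr13:40666642-40666891 (minus strand) and the first of 4 listed FOXO3 starts, chr6:108559575-108559824 (plus strand). Capitals mark the forkhead core TGTTTA, the CCAAT box, the GC box GGGCGG and the E-box CACGTG, on either strand. The CC that ends the FOXK2 letters begins a GC box, CCGCCC, that runs past the printed bases.
FOXK1: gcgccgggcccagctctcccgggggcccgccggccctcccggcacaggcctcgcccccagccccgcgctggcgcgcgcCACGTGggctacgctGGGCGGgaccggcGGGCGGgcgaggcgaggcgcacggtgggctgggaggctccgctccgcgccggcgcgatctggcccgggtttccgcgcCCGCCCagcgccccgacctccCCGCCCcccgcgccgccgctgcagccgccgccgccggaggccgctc
FOXK2: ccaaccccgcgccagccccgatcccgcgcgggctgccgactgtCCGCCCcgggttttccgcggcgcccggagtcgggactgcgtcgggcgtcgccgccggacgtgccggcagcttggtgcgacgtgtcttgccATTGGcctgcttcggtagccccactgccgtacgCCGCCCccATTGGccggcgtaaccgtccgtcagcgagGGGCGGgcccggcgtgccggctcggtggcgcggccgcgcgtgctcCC
FOXO1: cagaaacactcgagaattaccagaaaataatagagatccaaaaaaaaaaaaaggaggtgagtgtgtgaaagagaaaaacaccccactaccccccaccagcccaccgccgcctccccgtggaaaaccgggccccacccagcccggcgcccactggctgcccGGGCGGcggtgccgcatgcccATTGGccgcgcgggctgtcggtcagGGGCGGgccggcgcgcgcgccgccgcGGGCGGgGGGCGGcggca
FOXO3: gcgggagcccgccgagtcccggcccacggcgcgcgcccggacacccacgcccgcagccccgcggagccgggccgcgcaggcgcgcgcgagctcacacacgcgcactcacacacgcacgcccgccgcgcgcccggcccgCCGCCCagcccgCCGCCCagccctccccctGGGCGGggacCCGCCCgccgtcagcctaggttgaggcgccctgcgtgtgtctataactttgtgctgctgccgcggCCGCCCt

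All 4 genes matched the RefSeq promoter table, with 7 windows of 300 bases between them, each with 250 bases before and 50 after a start. In the windows of the first starts, GC content was 84.3% at FOXK1, 79.0% at FOXK2, 68.0% at FOXO1 and 78.3% at FOXO3, against a median of 58.7% over 35116 windows. CpG pairs numbered 55, 55, 33 and 47 in that order, against a median of 14. The forkhead letters TGTTTAC, present on either strand in 3.42% of all windows, were in none of the 7. The shorter core TGTTTA, which lies within TGTTTAC, was in 12.3% of all windows and in 1 of the 7, that of the second FOXO3 start, 1092 bp downstream of the first. There it reads TAAACA on the printed strand and begins 233 bases before that start, within these 30 bases (GRCh38.p14, chr6:108560667-108560696, plus strand).
FOXO3 second start: cgggcccgagcgaaacaTAAACAaacgcac
The GC box letters GGGCGG, held by 45.0% of all windows, occurred in the first window of each of the 4 genes. CCAAT (34.6% of all windows) occurred 2 times at FOXK2 and 1 time at FOXO1, and the E-box CACGTG (7.26%) 1 time at FOXK1. TGACG (24.6%) occurred 1 time each at FOXK2 and at the first FOXO3 start, while TGTTTTG (4.92%) and CCGGAAG (10.3%) occurred in none of the 7 windows. These matches describe letters, not binding. Most summits described below lay downstream of the chosen starts or more than 250 bases upstream of them. The sequence at the summits was not examined. Peaks are in hg19, and whether the starts of the 2 builds are the same base was not tested.

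The 6 lists differ in length, with 48208, 45057 and 27503 peaks in insulin replicates 1, 2 and 3 and 44687, 31668 and 26082 in untreated replicates 1, 2 and 3. Total read numbers are unknown, so strength is given as a percentile of −log10 q within each list, where 100 is the strongest peak. Such a percentile also depends on the list's length, and the insulin list was the longer at each replicate number. A peak's deposited fold is its ratio to the background expected at its summit in the same library. FOXK and FOXO peaks numbered 11, 10 and 5 with insulin and 10, 10 and 8 without. The 54 peaks merged, where they shared at least 1 bp, into 14 regions. Of these, 4 were called in all 6 libraries, against 23.3% of all 68127 regions of the series, and 5 were called in 1 library, against 34.3% of all regions. None was called in 3 of 3 insulin and 0 of 3 untreated libraries, the pattern of 0.376% of all regions, and none showed the reverse, the pattern of 0.0352%. With 14 regions, these counts are near what the whole series shows.

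**Figure D1:**
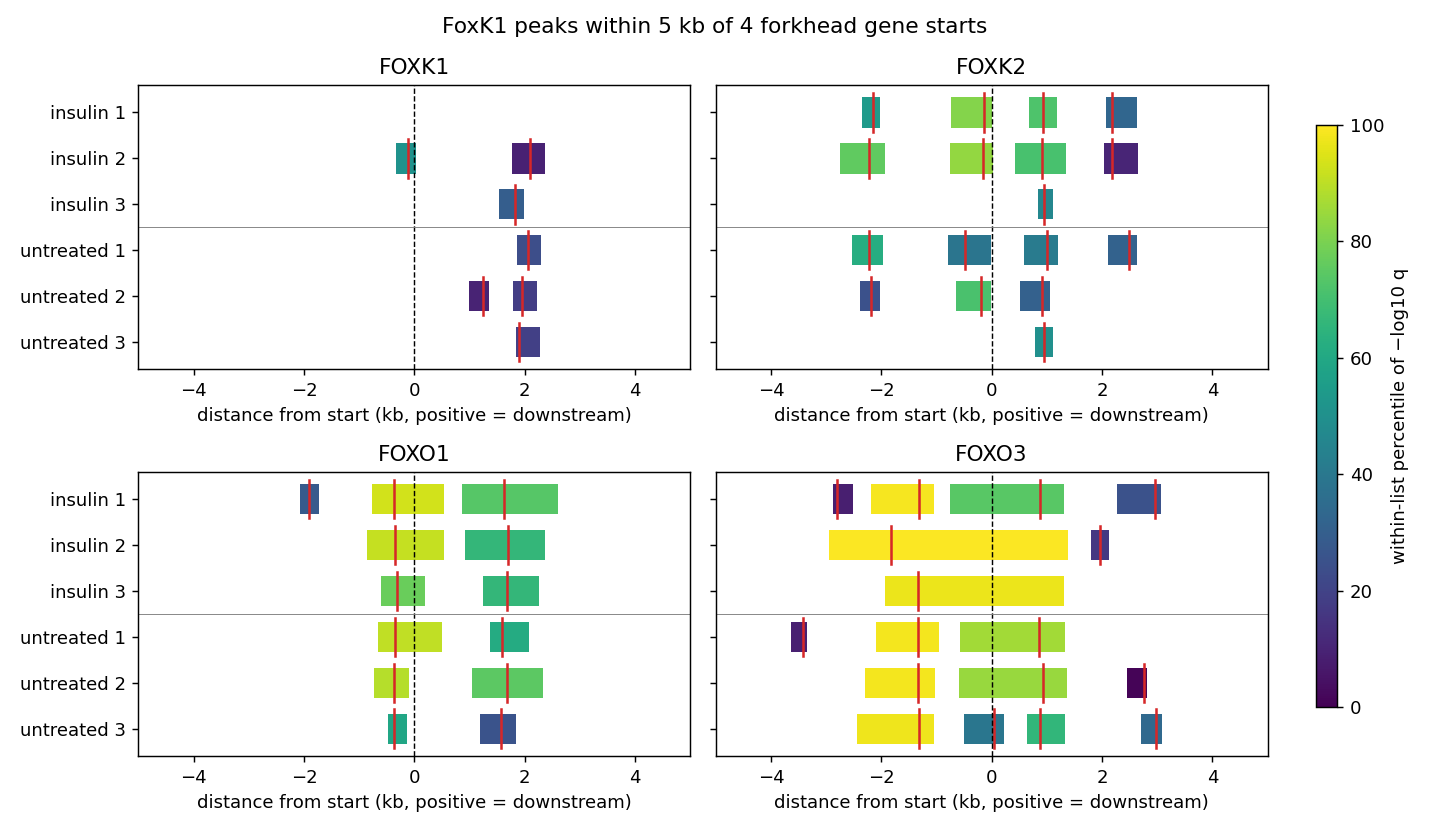
FoxK1 peaks within 5 kb of each start, one row per library with the insulin libraries above the untreated ones; the x axis is the distance from the start in kb, positive downstream, each box is a peak coloured by its within-list percentile of −log10 q, and each red tick is its summit. FOXO3 carries bright peaks in all 6 rows, while FOXK1 has no box in insulin replicate 1.

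FOXO3, a forkhead factor of stress resistance and autophagy, had the strongest FoxK1 peaks of the 4 genes. Its strongest peak stood at percentiles of 98.4, 99.5 and 97.2 in insulin replicates 1, 2 and 3, and at 98.1, 98.1 and 97.5 in untreated replicates 1, 2 and 3. Ranks by −log10 q were 750, 229 and 771 with insulin and 861, 617 and 665 without. Every one of the 6 libraries thus held it among its strongest few percent, and the percentiles of the 2 groups overlapped. The mean was 98.4 ± 1.16 with insulin and 97.9 ± 0.353 without (SD, n = 3 each), a difference of 0.51 with a two-sided exact permutation p of 0.5, where 0.1 is the smallest that 3 against 3 allows. Without insulin replicate 2 that difference was -0.047.

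The FOXO3 summit was held to a narrow place upstream of the start. It lay 1321 and 1330 bp upstream in insulin replicates 1 and 3, and 1341, 1337 and 1317 bp upstream in untreated replicates 1, 2 and 3. These 5 summits span 24 bp, around position 108879696 of chromosome 6. In insulin replicate 2 the summit lay 1825 bp upstream, in a peak of 4338 bp that also covered the place of the other summits. All 6 libraries had a peak over both places. A second place downstream of the start had summits at 868 bp in insulin replicate 1 and at 853, 936 and 874 bp in untreated replicates 1, 2 and 3, with percentiles of 74.1 against 86.1, 84.8 and 65.6. In insulin replicates 2 and 3 a single wide peak ran over both places, so the downstream one had no summit of its own. Peak numbers were 4, 2 and 1 with insulin and 3, 3 and 4 without (two-sided exact permutation p = 0.5), a difference of -1 that became -1.83 or -0.33 with insulin replicate 1 or 3 left out, and -0.67 with untreated replicate 3 left out. The strongest summits differed by -160 bp in mean distance (two-sided exact permutation p = 0.8), or 6.17 bp without insulin replicate 2. With the peak nearest to the start in place of the strongest, the differences were 20.2 in percentile and -1371 bp in distance (two-sided exact permutation p = 0.3 for each). These differences compare different places. The nearest summits lay 868 bp downstream, 1825 bp upstream and 1330 bp upstream in insulin replicates 1, 2 and 3. In untreated replicates 1, 2 and 3 they lay 853, 936 and 37 bp downstream, the last at a percentile of 39.3. The merged FOXO3 region spans 4338 bp, the same bases as the insulin replicate 2 peak alone. In the other libraries the widest peak there was 3238 bp, in insulin replicate 3. A width of 4338 bp was reached by 0.157% of the regions called in all 6 libraries, whose median is 1092 bp.

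The deposited folds at the strongest FOXO3 peak were 31.1, 56.6 and 19.1 in insulin replicates 1, 2 and 3, and 14.9, 13.0 and 15.7 in untreated replicates 1, 2 and 3. The insulin replicate 2 value is from the summit 1825 bp upstream, a different place from that of the other libraries. The 3 insulin values all lay above the 3 untreated ones, a log2 difference of 1.15 (two-sided exact permutation p = 0.1, the smallest possible, n = 3 each). The same lack of overlap with insulin higher was found in 34.3% of the 15887 regions called in all 6 libraries, and the reverse in 0.00629% of them. The median log2 difference over these regions was 0.59, with a 5th to 95th percentile range of 0.11 to 1.01. Median folds over all peaks of a list were 5.95, 5.58 and 4.78 with insulin and 4.65, 4.18 and 4.21 without. Divided by these, the FOXO3 folds were 5.22, 10.1 and 4.01 with insulin and 3.21, 3.11 and 3.74 without, again with no overlap, which 16.9% of the regions showed with insulin higher and 0.567% with insulin lower.

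The fragments and backgrounds behind these folds are counts not scaled for depth, which is unknown, so they cannot tell whether the groups differ. Solved from the fold and the −log10 p of the peak, the summit had 182, 343 and 69 fragments in insulin replicates 1, 2 and 3 and 226, 148 and 68 in untreated replicates 1, 2 and 3. The background expected there was 4.88, 5.08 and 2.66 fragments in the insulin libraries and 14.2, 10.5 and 3.39 in the untreated libraries. The fragment numbers overlapped, and of the 3 untreated backgrounds only that of replicate 3 lay below those of insulin replicates 1 and 2. A fold is a value of each list by itself and its part in any effect of insulin was not tested. Without insulin replicate 2 the log2 difference was 0.75.

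**Figure D2:**
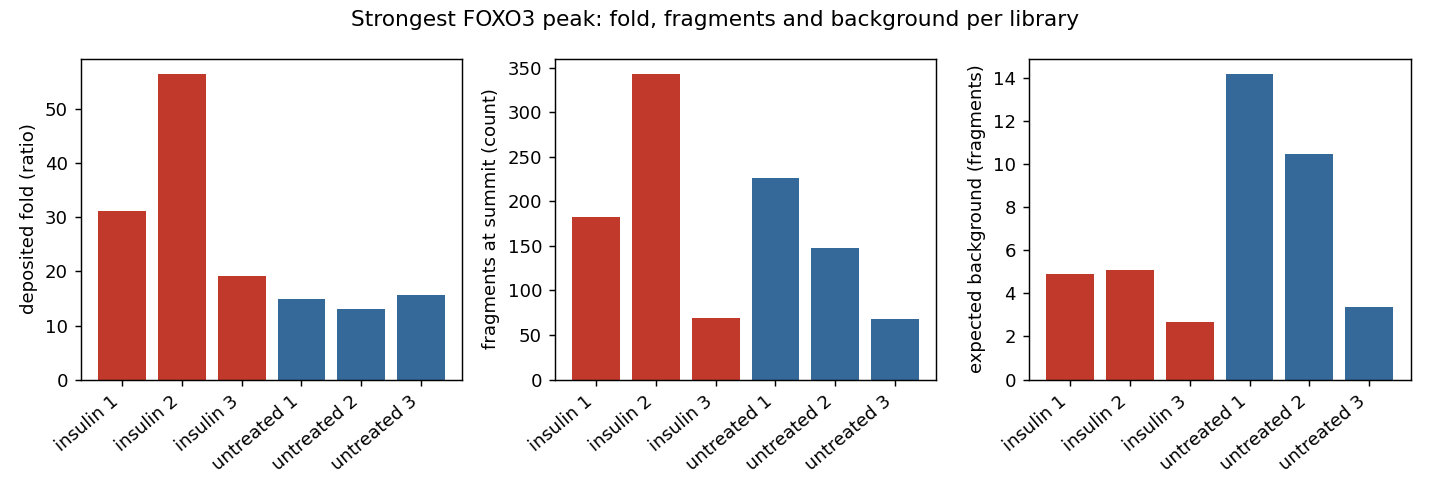
Strongest FOXO3 peak in each library, insulin in red and untreated in blue; the 3 panels plot the deposited fold (ratio), the fragments at the summit (count) and the expected background (fragments), the last 2 worked out from the deposited values. The fold is 19.1 or more in the insulin bars and 15.7 or less in the untreated bars, while the fragment bars, which are not scaled for depth, overlap.

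FOXO1, the main FOXO activator of gluconeogenic genes in hepatocytes, had 2 places called in all 6 libraries. The upstream summit lay 359, 356 and 319 bp before the start in insulin replicates 1, 2 and 3, and 349, 360 and 368 bp before it in untreated replicates 1, 2 and 3, a span of 49 bp around position 41241092 of chromosome 13. Its percentiles were 93.3, 91.4 and 77.0 with insulin and 90.4, 88.8 and 59.0 without. Replicate 3 was the lowest in both groups, and the groups overlapped. The mean was 87.2 ± 8.93 with insulin and 79.4 ± 17.7 without (SD, n = 3 each), a difference of 7.86 (two-sided exact permutation p = 0.5). Without untreated replicate 3 the difference was -2.33, and without both replicate 3 libraries it was 2.80. The summit had 97, 113 and 31 fragments in the insulin libraries and 109, 76 and 26 in the untreated libraries, and the folds were 17.7, 16.4 and 7.37 against 10.2, 7.48 and 4.58, a log2 difference of 0.87 with overlap (two-sided exact permutation p = 0.3). Leaving out 1 library moved that log2 difference to between 0.56, without untreated replicate 3, and 1.27, without insulin replicate 3. Within same-numbered pairs, percentile and fold were higher with insulin in 3 of 3 pairs (two-sided exact sign-flip p = 0.25 for each, the smallest that 3 pairs allow).

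The downstream FOXO1 place had summits 1636, 1693 and 1676 bp after the start in the insulin libraries and 1597, 1690 and 1574 bp after it in the untreated libraries. Percentiles there were 73.5, 66.2 and 66.2 with insulin and 61.1, 74.8 and 25.7 without, with overlap. In each of the 6 libraries the upstream place ranked above the downstream one. A further weak peak, 1908 bp upstream at the 27.8th percentile, was called in insulin replicate 1 alone. The strongest summit differed by 14.3 bp in mean distance between the groups (two-sided exact permutation p = 0.4), or 1.5 bp without insulin replicate 3, and the number of peaks was 3, 2 and 2 with insulin and 2, 2 and 2 without (two-sided exact permutation p = 1).

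FOXK2, the paralog of FOXK1, had several weaker peaks strung along its start. Only the place about 932 bp downstream had a summit in all 6 libraries, at percentiles of 72.1, 70.9 and 46.3 in insulin replicates 1, 2 and 3 and of 41.4, 30.8 and 49.9 in untreated replicates 1, 2 and 3. The groups overlapped there, since insulin replicate 3 fell below untreated replicate 3. A place just before the start had summits 135 and 162 bp upstream in insulin replicates 1 and 2, at percentiles of 81.3 and 83.7, and 489 and 193 bp upstream in untreated replicates 1 and 2, at 38.7 and 71.1. A place about 2208 bp upstream had percentiles of 53.9 and 75.6 in insulin replicates 1 and 2 and of 62.2 and 24.9 in untreated replicates 1 and 2. Neither of these upstream places was covered by a peak in the replicate 3 library of either group. Those are also the 2 shortest lists. Farther downstream, weak summits lay at 2176 and 2186 bp in insulin replicates 1 and 2, at percentiles of 32.5 and 10.2 and folds of 4.11 and 2.67. Untreated replicate 1 had one at 2490 bp, at a percentile of 30.9 and a fold of 3.28. These peaks merged into 1 region, called in 3 libraries.

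The strongest FOXK2 peak therefore stood at different places in different libraries, and its percentiles were 81.3, 83.7 and 46.3 with insulin and 62.2, 71.1 and 49.9 without. The mean was 70.4 ± 21.0 with insulin and 61.1 ± 10.7 without (SD, n = 3 each), a difference of 9.37, which is less than the SD of either group (two-sided exact permutation p = 0.6). The log2 fold difference was 0.81 with overlap (two-sided exact permutation p = 0.3). Leaving out insulin replicate 1, 2 or 3 gave 0.52, 0.53 and 1.37 in that order. Peak numbers were 4, 4 and 1 with insulin and 4, 3 and 1 without (two-sided exact permutation p = 1). The strongest summits differed by 706 bp in mean distance (two-sided exact permutation p = 0.5), a value that turned to -162 bp without untreated replicate 1. With each library left out in turn the percentile difference ranged from 2.74, without insulin replicate 2, to 21.4, without insulin replicate 3.

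FOXK1 itself had the weakest peaks at its start. Insulin replicate 1, the longest list, had none within 5 kb, and the other 5 libraries shared only a place about 1957 bp downstream, with summits between 1825 and 2099 bp. Percentiles at that place were 9.20 and 29.6 in insulin replicates 2 and 3 and 23.8, 17.9 and 18.8 in untreated replicates 1, 2 and 3, so that the groups overlapped. The summits had 17 and 16 fragments with insulin and 24, 19 and 16 without. Only insulin replicate 2 had a peak over the promoter itself, 120 bp upstream, with 29 fragments, a fold of 7.09 and a percentile of 50.6. With that peak as the strongest, the mean percentile was 40.1 ± 14.9 with insulin (SD, n = 2) and 20.2 ± 3.13 without (SD, n = 3), a difference of 19.9 (two-sided exact permutation p = 0.1, the smallest that 2 against 3 allows). This difference compares different places, and it was 9.43 without insulin replicate 2 and 30.4 without insulin replicate 3. With lists of equal length it was 10.6 (two-sided exact permutation p = 0.67, n = 2 each). Strongest summits differed by -1123 bp in mean distance, again between different places (two-sided exact permutation p = 0.1), and the log2 fold difference was 0.61 (two-sided exact permutation p = 0.2). Without insulin replicate 2 these were -151 bp and 0.17, and without insulin replicate 3 they were -2096 bp and 1.05. Peak numbers were 0, 2 and 1 with insulin and 1, 2 and 1 without (two-sided exact permutation p = 1).

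Within every library the genes kept one order by their strongest peak, FOXO3 above FOXO1 above FOXK2 above FOXK1, the last not being called in insulin replicate 1. FOXO3 (97.2 to 99.5) did not overlap FOXO1 (59.0 to 93.3) across the 6 libraries. FOXO1 overlapped FOXK2 (46.3 to 83.7), and FOXK2 overlapped FOXK1 (17.9 to 50.6). Of the 4 regions called in all 6 libraries, 1 at FOXK2, 2 at FOXO1 and 1 at FOXO3, none had percentiles that separated the groups, a pattern that 8.65% of such regions showed with insulin higher and 0.85% with insulin lower. Their insulin-minus-untreated differences were 22.4 at FOXK2, 14.8 and 7.86 at the downstream and upstream places of FOXO1, and 0.51 at FOXO3. Over all 15887 such regions the median difference was 2.94, with a 5th to 95th percentile range of -9.42 to 20.8. FOXO3 had little room to rise on this scale, which ends at 100, from its untreated mean of 97.9. Whether that limit bears on its difference was not tested.

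**Figure D3:**
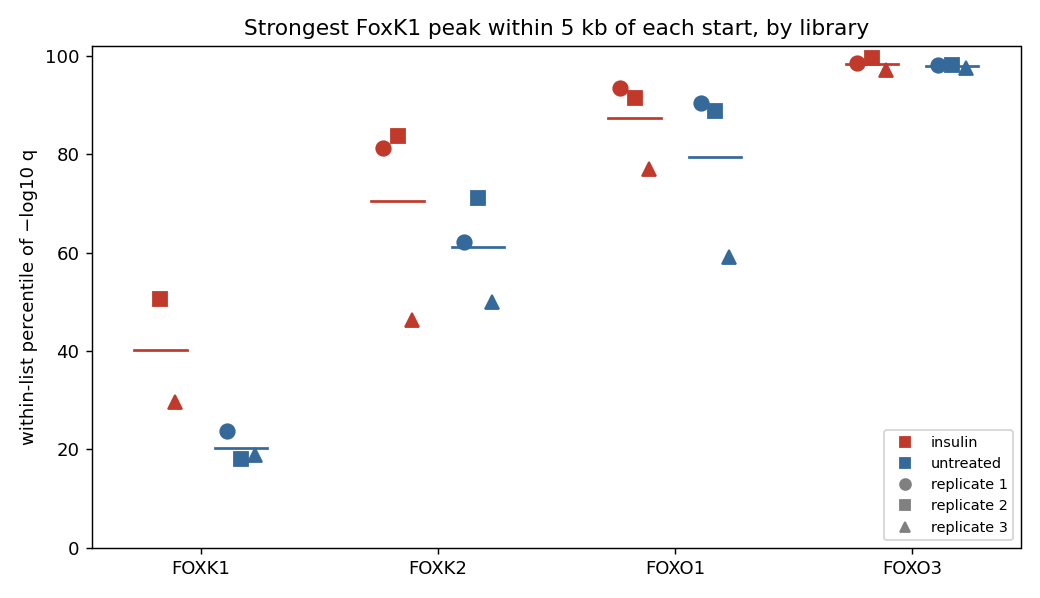
Within-list percentile of −log10 q (y axis) of the strongest peak within 5 kb of each start (x axis), one symbol per library with the shape giving the replicate number, insulin in red left of untreated in blue, and a line at each group's mean. FOXO3 lies above 97 in all 6 libraries, and insulin and untreated symbols overlap at FOXK2, FOXO1 and FOXO3.

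Beyond 5 kb, FOXK1 and FOXK2 had stronger peaks than at their starts. The strongest peak between 5 and 100 kb of FOXK1 lay 40.4 kb upstream in all 6 libraries, within chromosome 7, 4681099 to 4682191, at percentiles of 99.9, 99.9 and 99.6 with insulin and 99.9, 99.9 and 99.8 without. It ranked 41, 27 and 116 with insulin and 63, 35 and 56 without, and so above the strongest FOXO3 start peak in each of them. Its folds were 77.7, 73.9 and 27.3 with insulin and 30.6, 38.9 and 29.7 without. A further FOXK1 region called in all 6 libraries, 62.9 kb downstream at chromosome 7, 4784300 to 4785270, had percentiles between 97.1 and 99.2. That distance is shorter than the RefSeq length of the gene, 89.1 kb in GRCh38.p14. Which genes lie at the upstream site in hg19 was not examined.

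FOXK2 had strong distant peaks as well. A region 61.3 kb upstream, chromosome 17, 80415103 to 80417463, had percentiles between 98.5 and 99.4, and one 48.9 kb downstream, chromosome 17, 80526031 to 80526998, between 95.4 and 99.4, both in all 6 libraries. FOXO1 was isolated by comparison, with 3, 2 and 2 peaks between 5 and 100 kb in the insulin libraries and 2, 1 and 1 in the untreated ones. Its strongest there lay 97.7 to 97.8 kb downstream, at percentiles between 39.3 and 71.7. FOXO3 had 4, 5 and 0 such peaks with insulin and 4, 3 and 3 without, none in a region called in all 6 libraries. The nearest lay 6.17 to 6.22 kb downstream, just outside the 5 kb limit, in every library but insulin replicate 3, at percentiles between 33.7 and 78.3. FOXK2 likewise had a summit 5.75 to 5.82 kb downstream in every library but untreated replicate 3, at percentiles between 51.4 and 77.5. FOXK1 had 1 such summit in insulin replicate 1, 6.115 kb upstream at a percentile of 21.2 with a fold of 4.46, so that within 10 kb FOXK1 was called in 6 of 6 libraries. The summits farthest inside the limit lay 3416 bp from the start at FOXO3, 2490 bp at FOXK2, 2099 bp at FOXK1 and 1908 bp at FOXO1.

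**Figure D4:**
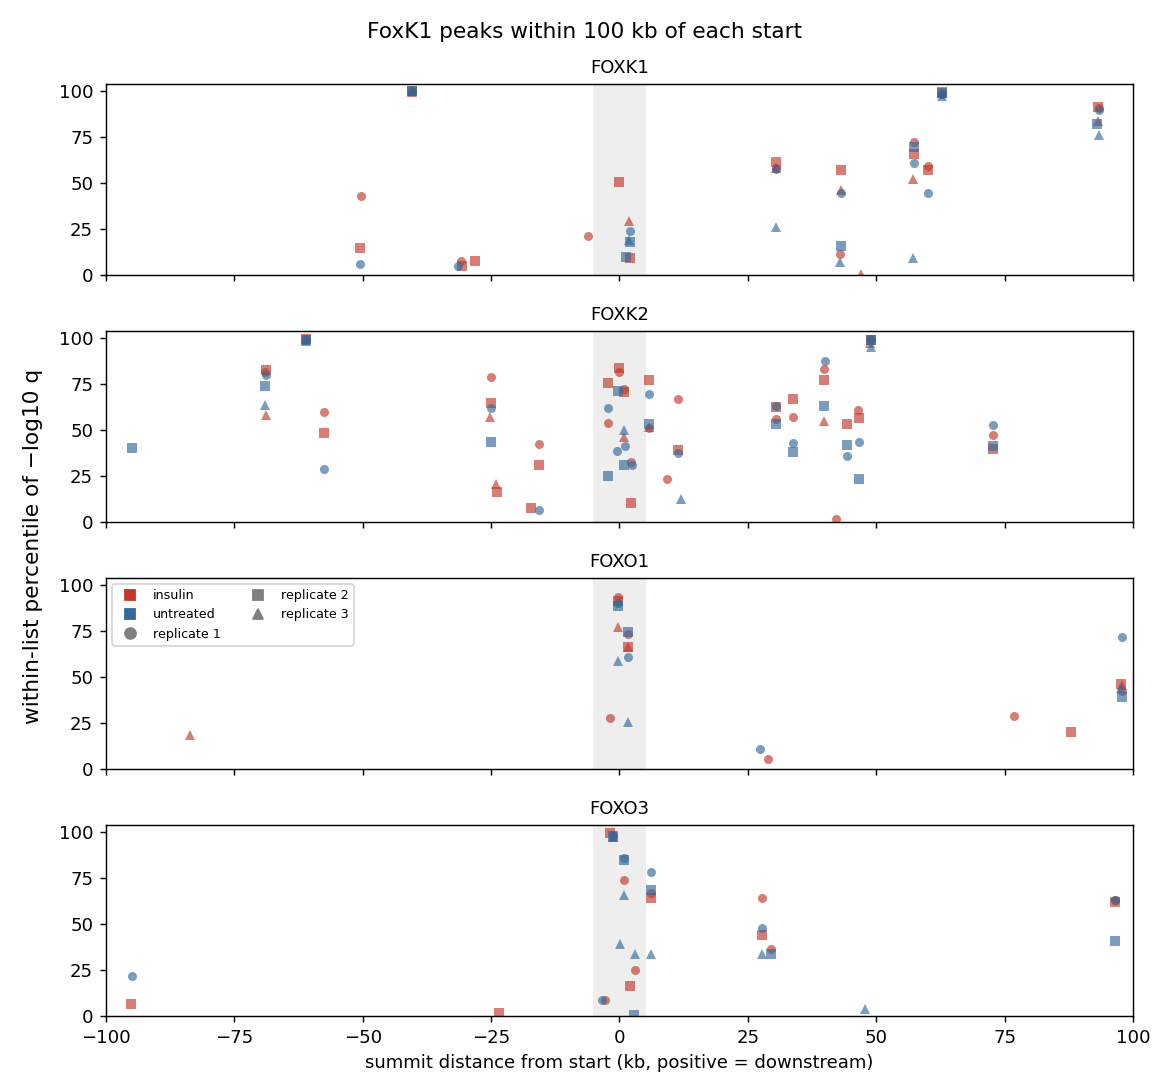
Summits of FoxK1 peaks within 100 kb of each start, with distance in kb on the x axis (positive downstream) and the within-list percentile of −log10 q on the y axis; colour gives the treatment, shape the replicate number, and the grey band the 5 kb on either side of the start. FOXK1 and FOXK2 have their highest symbols outside the band, FOXO1 and FOXO3 inside it.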

How the data were processed

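FoxK1 immunoprecipitates of HepG2 cells were analysed as 6 peak lists, 1 per library, with groups and replicate numbers from the sample titles. The submitters' processing notes name the build hg19 and, with no versions, MACS2, Bowtie2, SAMtools and fastp. The sources used here do not give the threshold or any use of the inputs as control. The authors called peaks on each library by itself, since peak names carry 1 library's name. The deposited fold is a ratio over background at the summit. Depth enters the deposited −log10 q and −log10 p, and the deposited score is within 1 of 10 times −log10 p for 100% of peaks.

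A peak belongs to a gene when its summit (peak start plus offset) lies within 5 kb of the start. Distances are signed along the gene and positions are 1-based. The strongest peak has the highest −log10 q, and its percentile is its average rank in its list. Summits of a gene were called 1 place where neighbours lay within 300 bp, a distance chosen after seeing the data. Regions are peaks of all lists merged at 1 bp. Fragments k and background b were solved from fold = (k + 1)/(b + 1) and −log10 p as a Poisson upper tail, within 0.0005 (in proportion above 10). Each of the 54 peaks had a single whole-number solution. The steps were tested on simulated data. Counting error only limits single values, and depth is unknown. The 2 groups' means were set against each other in two-sided exact permutation tests over the libraries with a peak. The smallest p for 3 against 3 is 0.1, so no single result can pass 0.05.

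Every one of the 4 genes is described. They and the lists were chosen with earlier results of these data known. Counts at other forkhead and pathway genes were planned but need hg19 starts, which were not used here. Same-numbered libraries were taken as paired in the sign-flip tests alone, and the permutation tests did not use the pairing. The pairs were taken because their deviations from the group mean percentile correlated at 0.151, 0.218 and 0.266 over 15887 regions called in all 6 libraries. Libraries of unlike number correlated between -0.275 and 0.108, the latter for insulin replicate 2 with untreated replicate 1. Whether shared list length or depth gave this pattern was not tested. Deviations were correlated across regions, which are not independent. The labels themselves say nothing of pairing. Alternatives were windows of 1, 2 and 10 kb, lists of equal length, −log10 q of at least 5, each library left out, the replicate block, the nearest peak in place of the strongest, and percentiles of fold or −log10 p. Leaving out both replicate 3 libraries was added after seeing the data. Python 3.11.15, numpy 2.4.6, pandas 2.3.3, scipy 1.17.1 and matplotlib 3.10.9 were used.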

Additional observations from a re-analysis of the deposited data

How the results depend on the processing

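Of 225 recomputed differences, 199 kept their sign, 137 of them within 1.5 times the reported value and 62 beyond it. A further 14 changed sign and 12 became 0. Some of the 225 could not move. Insulin replicate 1 had no FOXK1 peak, so leaving it out returned the same FOXK1 percentile, distance and log2 fold differences. At FOXO1 these 3 differences were the same within 1, 2 and 10 kb as within 5 kb. Of 48 recomputed library counts, 45 stayed within 1.5 times. Leaving out 1 library can lower a count by 1 at most, so those counts could not leave that range. Without both replicate 3 libraries the counts of FOXK2, FOXO1 and FOXO3 were 4 of 4, at its limit. The 45 therefore say little about robustness. The cause of the changes was not tested except where named, and no p went below 0.1. With no library missing, the replicate block leaves a mean difference as it is and changes its p. It gave a two-sided exact sign-flip p of 0.25, the smallest for 3 pairs, for the FOXO1 percentile difference and the log2 fold differences of FOXK2, FOXO1 and FOXO3, and of 0.5 for the FOXO3 percentile difference (0.51). At FOXK1, with 2 complete pairs, the block gave differences of 21.7 in percentile, 0.70 in log2 fold and -1080 bp in distance. No call changed, since none could pass 0.05. With lists of equal length the percentile differences were 10.6 at FOXK1, 10.2 at FOXK2, 6.56 at FOXO1 and 0.50 at FOXO3. FOXK1 was called in 6 libraries within 10 kb, in 1 library within 1 kb, in 2 libraries with −log10 q of at least 5 and in 3 of 4 without both replicate 3 libraries (fewer libraries). The percentile difference of FOXO3 was -4.75 within 1 kb, where insulin had a summit in 1 library; with each library left out it ranged from -0.047 to 1.11 for FOXO3 and from -2.33 to 13.4 for FOXO1. The summit distance difference of FOXK2 was -368 bp within 1 kb and within 2 kb and -328 bp within 10 kb, and -162 to 1425 bp with each library left out; that of FOXO1 was -3 bp without both replicate 3 libraries; that of FOXO3 ranged from -246 to 6.17 bp. Differences in peak number were 0.33 for FOXK1 within 1 kb, and 0 for FOXK1 within 10 kb, with −log10 q of at least 5 and with equal lengths, for FOXK2 within 1 kb, within 2 kb and with −log10 q of at least 5, for FOXO1 within 1 kb and with equal lengths, and for FOXO3 with −log10 q of at least 5 and without both replicate 3 libraries. With each library left out they ranged from -0.83 to 0.17 for FOXK1, from -0.5 to 1.33 for FOXK2, from 0 to 0.5 for FOXO1 and from -1.83 to -0.33 for FOXO3.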
